A study of Homo sapiens with 5 samples.

Results

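The 10 genes IGF1, IGF2, IRS1, IRS2, IGFBP2, IGFBP3, IGFBP4, IGFBP5, IGFBP6 and IGFBP7 belong to insulin and insulin-like growth factor (IGF) signaling, and were taken as a named list from the 20033 protein-coding genes of GENCODE release 44. Their chromatin was read from 1 list of 181723 hotspots, regions of open chromatin, in MCF10A, an immortalized and non-tumorigenic human mammary epithelial cell line. The assay was ATAC-seq, in which the Tn5 transposase inserts adapters into accessible DNA. Libraries from 5 replicates formed 1 group and were pooled by the authors before hotspots were called, so that no replicate error and no test can be given, and the read depth behind each hotspot is unknown. All cells grew in a medium that held 10 µg/ml insulin and 5% horse serum, together with 100 ng/ml cholera toxin, 0.5 µg/ml hydrocortisone and 20 ng/ml EGF. There was no culture without insulin, so a response to insulin cannot be read from these data. MCF10A is a single line, and pooled libraries give neither cell-to-cell nor allelic differences.

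Insulin and the IGFs bind receptor tyrosine kinases, which phosphorylate the adaptor proteins IRS1 and IRS2. The adaptors recruit phosphoinositide 3-kinase, AKT is activated, and FOXO transcription factors leave the nucleus. In the extracellular fluid the IGFs are held by the IGF binding proteins (IGFBPs), which prolong their life and limit or direct their access to the receptor.

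A hotspot belonged to a gene in any of 3 ways: it overlapped the 1000 bp on either side of any transcription start site (TSS) of the gene (a promoter hotspot), its midpoint lay within the gene, or the gene held the nearest protein-coding TSS within 100 kb of its midpoint (an assigned hotspot). By any of these rules 113 hotspots of the 181723 belonged to the 10 genes. Of these, 112 were assigned, 36 lay within the genes and 12 were promoter hotspots. The score is the one that the program Hotspot gave each region for its excess of reads over the surrounding 50 kb. Over the whole list it ran from 4.36 to 912, with a median of 5.81 and a 90th percentile of 16.1.

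The sequence of 6 stretches of these hotspots is given, in hg38 and 5′ to 3′ on the strand of the gene, because strong hotspots of these genes differ in base composition and in the short motifs they hold. The stretches come from the strongest assigned hotspot of IRS2, IRS1, IGFBP3 and IGFBP5 and from the second by score of IRS1 and IGFBP6. Within each hotspot the stretch with the most matches to the motifs searched was taken, clear of annotated UTRs. Capitals mark every match. All genes shown are on the minus strand except IGFBP6. The IRS2 stretch ended 236 bp before the canonical TSS and held 5 SP/KLF matches (CCCCGCCC), of which a pair overlap and run together. The nearer IRS1 stretch, in intron 1, held 4 SP/KLF matches, and the farther one held 1 FOXO (GTAAACA) and 1 AP-1 (TGACTCA) match. The IGFBP3 stretch, upstream of the gene, held an AP-1 match. The IGFBP5 stretch held an E-box (CACGTG), and the IGFBP6 stretch an ETS match (CCGGAAG), 2 SP/KLF matches and an E-box that shares bases with the SP/KLF match before it.
IRS2 promoter, chr13:109786819-109787058: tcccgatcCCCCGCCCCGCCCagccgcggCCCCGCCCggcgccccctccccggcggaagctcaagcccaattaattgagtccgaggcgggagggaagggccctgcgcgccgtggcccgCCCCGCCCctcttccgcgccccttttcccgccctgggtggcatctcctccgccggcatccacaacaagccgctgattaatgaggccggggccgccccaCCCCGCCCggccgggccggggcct
IRS1 intron 1, near, chr2:226791640-226791879: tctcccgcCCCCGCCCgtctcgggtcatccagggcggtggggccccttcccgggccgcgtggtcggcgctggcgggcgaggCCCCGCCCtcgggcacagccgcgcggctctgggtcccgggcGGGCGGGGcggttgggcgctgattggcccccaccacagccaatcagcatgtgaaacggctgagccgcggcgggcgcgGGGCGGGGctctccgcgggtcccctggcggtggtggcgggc
IRS1 intron 1, far, chr2:226756196-226756395: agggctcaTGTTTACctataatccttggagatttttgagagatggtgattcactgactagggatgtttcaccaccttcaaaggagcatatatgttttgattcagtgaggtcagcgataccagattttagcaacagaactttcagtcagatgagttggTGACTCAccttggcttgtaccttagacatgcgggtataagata
IGFBP3 upstream, chr7:45978258-45978377: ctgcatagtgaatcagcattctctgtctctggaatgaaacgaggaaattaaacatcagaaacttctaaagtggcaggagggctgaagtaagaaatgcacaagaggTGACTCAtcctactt
IGFBP5 intron 1, chr2:216684014-216684133: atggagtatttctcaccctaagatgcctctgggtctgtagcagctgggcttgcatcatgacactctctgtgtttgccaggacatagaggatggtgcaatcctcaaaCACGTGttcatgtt
IGFBP6 exon 1 and intron 1, chr12:53098022-53098141: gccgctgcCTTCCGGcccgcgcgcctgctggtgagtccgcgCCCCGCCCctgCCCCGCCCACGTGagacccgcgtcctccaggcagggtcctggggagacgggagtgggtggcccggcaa
The GC content of these stretches was 80% in the nearer IRS1 stretch, 78.3% in IGFBP6 and 76.7% in IRS2. It was lower in the other stretches, at 48.3% in IGFBP5, 41.7% in IGFBP3 and 41.5% in the farther IRS1 stretch. The stretches were chosen by motif matches, so their GC content may partly follow that choice. Over the whole hotspots it was 67.7% in the nearer IRS1 hotspot, 70.2% in IGFBP6 and 76.1% in IRS2. It was 52.6% in IGFBP5, 49.0% in IGFBP3 and 40.7% in the farther IRS1 hotspot.

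Of the 10 genes 7 had a promoter hotspot, against 77.2% of all protein-coding genes (15461 of 20033). The share was close to the background, but the scores were low. The strongest promoter hotspot of IRS2 scored 35.7, that of IGFBP3 13.9, IGFBP6 12.7, IRS1 7.20, IGF2 6.46, IGFBP4 5.28 and IGFBP5 4.49. Their median was 7.20, against 20.4 for all genes with a promoter hotspot. IRS2 was the only one of the 7 above that median, and 4 lay below the lower quartile of 10.7. With 1 pooled list there is no spread by which neighbours in this order, such as IRS1 and IGF2 or IGFBP3 and IGFBP6, could be told apart.

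**Figure D1:**
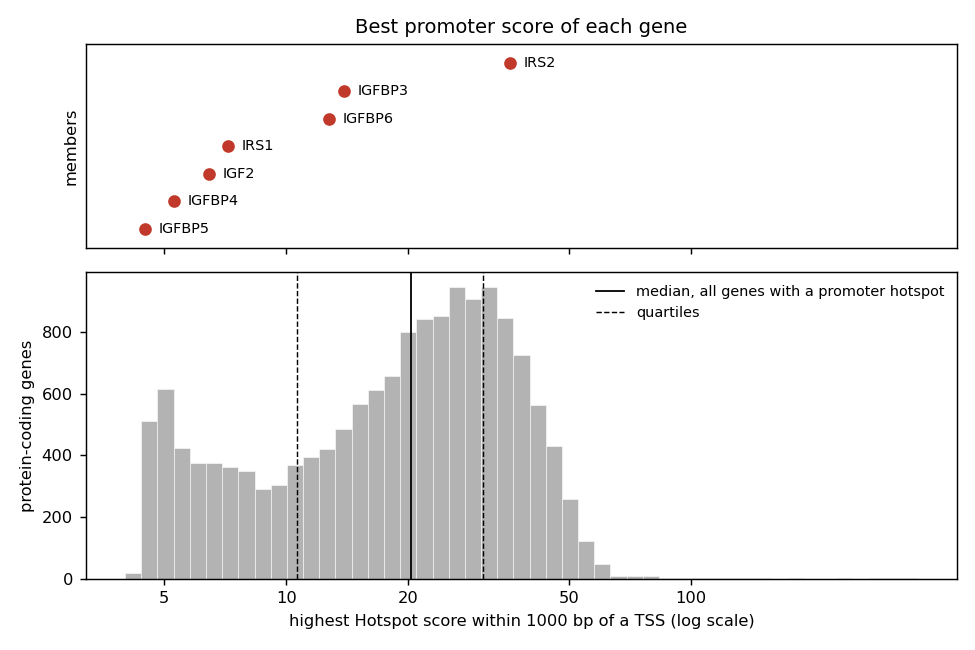
Highest Hotspot score within 1000 bp of a TSS, on a log scale, for the 7 genes with a promoter hotspot (points, top) and as a histogram of the 15461 protein-coding genes with one (bottom; solid line, median of 20.4; dashed lines, quartiles of 10.7 and 30.7). IRS2 at 35.7 lies above the upper quartile, and IRS1, IGF2, IGFBP4 and IGFBP5 lie below the lower one.

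For 7 of the 10 genes the strongest assigned hotspot lay away from the promoter. Only for IRS2, IGFBP4 and IGFBP6 was it a promoter hotspot, 3 of 10, against 55.1% of the 18111 genes with any assigned hotspot. The shares are not matched for the number of assigned hotspots, a median of 13 for the 10 genes against 5 over all protein-coding genes. The scores of the strongest assigned hotspots ran from 5.28 at IGFBP4 to 35.7 at IRS2. At IRS1 the strongest scored 31.6 against 7.20 at the promoter, and at IGFBP5 19.2 against 4.49. IGF1, IGFBP2 and IGFBP7 had no promoter hotspot, so their strongest assigned hotspots could only lie elsewhere. These scored 12.0, 11.1 and 15.01.

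**Figure D2:**
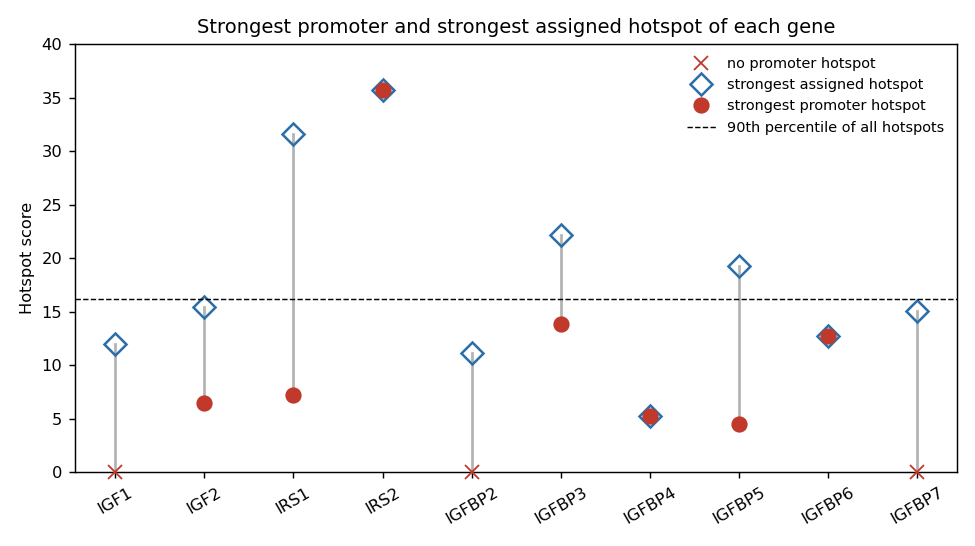
Hotspot score of the strongest promoter hotspot (filled circles) and of the strongest assigned hotspot (open diamonds) of each of the 10 genes, with the 90th percentile of all hotspots (16.1) as a dashed line and crosses at 0 where there was no promoter hotspot. Circle and diamond coincide for IRS2, IGFBP4 and IGFBP6, and IRS1, IRS2, IGFBP3 and IGFBP5 reach above the dashed line.

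All of the 10 genes but IGFBP4 and IGFBP6 had more assigned hotspots than the median gene. The median of the 10 was 13, against 5 over all protein-coding genes (quartiles 2 and 9). IGF2 had 18, IRS2 and IGFBP5 had 15 each, IGFBP3 and IGFBP7 14 each, IGF1 12, IRS1 10 and IGFBP2 9. IGFBP6 and IGFBP4 had 3 and 2. The median score of these hotspots was 5.61, close to the 5.80 of all assigned hotspots. Of the 112, 50 (44.6%) scored above the median of the list. In its top decile were 5 (4.46%), against 10.9% of all assigned hotspots. Those 5 were a pair at IRS2 and 1 each at IRS1, IGFBP3 and IGFBP5. The median width of the 112 was 322.5 bp, against 298 bp for all assigned hotspots. The count rests on the distance limit and on which genes compete: within 50 kb it was 74, and with the TSSs of genes of every type, long noncoding RNAs included, it was 35. No all-gene median is given for these settings. The comparison with all genes therefore holds only for protein-coding TSSs within 100 kb.

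**Figure D3:**
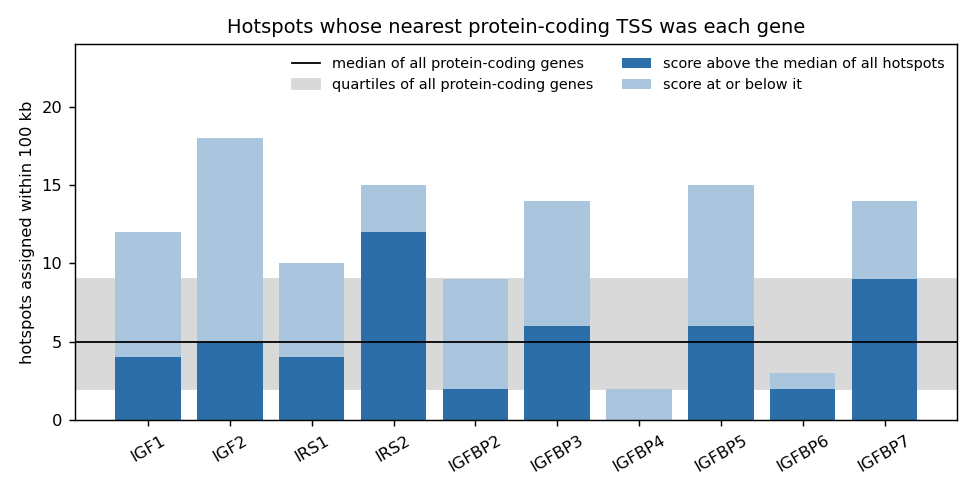
Number of hotspots whose nearest protein-coding TSS within 100 kb was that of each gene, split into scores above (dark) and at or below (light) the median of the list, beside the median (line) and quartiles (grey band) of all protein-coding genes. IGF2 has the most with 18, IRS2 the most of high score with 12, and IGFBP4 and IGFBP6 have 2 and 3.

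IGF1 (chr12:102395874-102481744, minus strand), a circulating and locally made growth factor, had no promoter hotspot at any of its 6 TSSs. The nearest hotspot to its canonical TSS was 54.5 kb away. Within the 85.9 kb of the gene there were 3 hotspots, of scores 5.24, 7.12 and 5.07, the first pair in intron 3 and the last over coding exon 3. At 0.349 hotspots per 10 kb this was the lowest density of the 10 genes, whose median was 0.967 against 0.778 for all protein-coding genes. Of its 12 assigned hotspots 8 lay upstream, and the strongest, at chr12:102539720-102540227, scored 12.0 and lay 59.4 kb upstream of the canonical TSS. It held 1 AP-1 and 1 TEAD (ACATTCC) match.

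IGF2 (chr11:2129112-2158391, minus strand), the fetal growth factor, whose gene is imprinted, had a promoter hotspot at 1 end only. It has 10 TSSs, and the hotspot at chr11:2158574-2158928, scoring 6.46, lay 183 bp from the most upstream of them, 19.0 kb before the canonical TSS. No hotspot lay within 1000 bp of the canonical TSS, where the nearest was 3.28 kb away. The readthrough gene INS-IGF2 covers the same stretch, so reads there cannot be given to 1 of the genes. Of the 18 assigned hotspots 16 lay downstream of the canonical TSS, and only 2 of the 18 lay within IGF2. The strongest, chr11:2092829-2093697, was 869 bp wide, scored 15.4 and lay 46.1 kb downstream of the TSS, beyond the end of the gene. Next came one of 9.51 at 39.6 kb, also past the gene end.

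**Figure D4:**
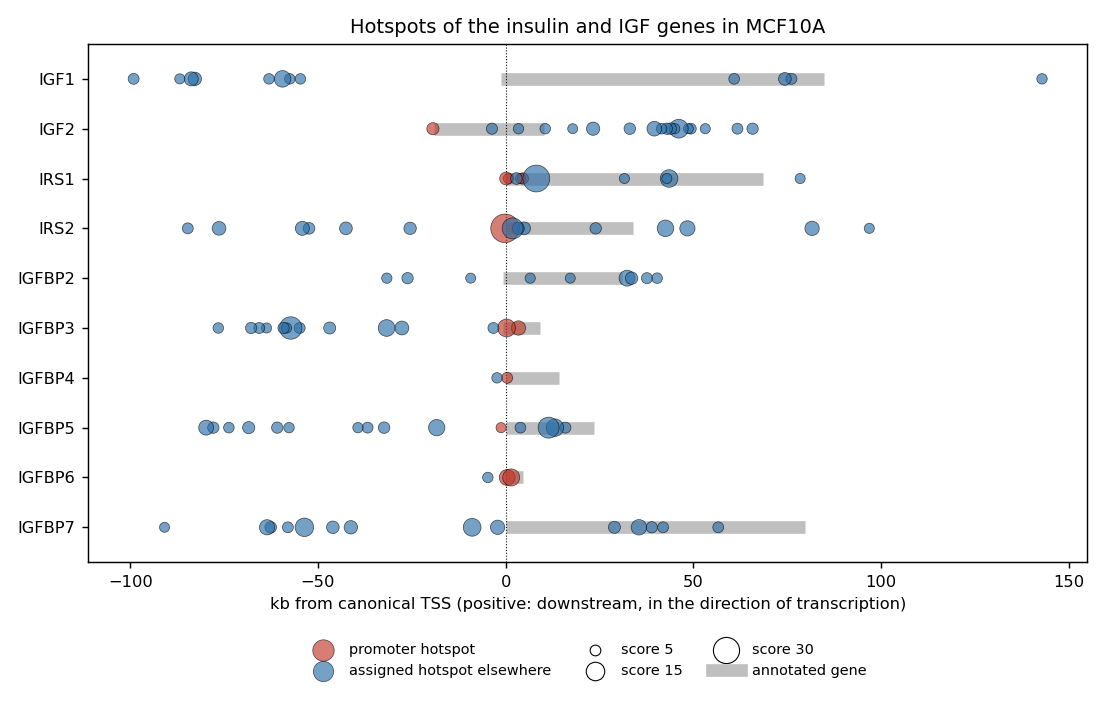
Hotspots of the 10 genes by distance of the midpoint from the canonical TSS (kb, positive in the direction of transcription); circle area is in proportion to the score, red marks promoter hotspots, blue other assigned hotspots, and grey bars the annotated genes. IRS2 has its largest circle at the TSS, IRS1 at 8.18 kb and IGFBP3 at 57.2 kb upstream, and IGF1, IGFBP2 and IGFBP7 have no red circle.

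IRS1 and IRS2, the adaptors that carry the signal from the insulin and IGF1 receptors, differed in where their open chromatin lay. At IRS2 (chr13:109752695-109786583, minus strand) a hotspot of 1879 bp at chr13:109785800-109787678 covered the TSS with a score of 35.7, at percentile 84.7 of genes with a promoter hotspot. Its width was at percentile 96.2 of all promoter hotspots. Its midpoint also lay within the gene of a long noncoding RNA (ENSG00000275741), so the region cannot be given to IRS2 alone. A further hotspot of 1593 bp, scoring 19.1, followed over coding exon 1, 1.87 kb downstream of the TSS. Farther downstream came a hotspot of 345 bp, scoring 6.36 over coding exon 1 at 3.37 kb, and one of 1272 bp, scoring 7.29 in intron 1 at 4.91 kb. IRS2 held 3 hotspots of over 1000 bp near its start and another of 1143 bp, scoring 9.04, at 81.6 kb downstream, where the gene has ended. Of its 15 assigned hotspots 12 scored above the median of the list.

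At IRS1 (chr2:226731312-226799820, minus strand) the hotspot over the canonical TSS was 369 bp wide and scored 7.20, in the 5′ UTR of exon 1. Of the 4 promoter hotspots of IRS1, only that of 4.86 also lay within 1000 bp of the canonical TSS. Those of 5.61 and 4.48 lay near an internal TSS 4.57 kb downstream, over coding exon 1. The strongest of the gene, chr2:226791219-226792065, lay in intron 1, 8.18 kb downstream of the canonical TSS. It was 847 bp wide and scored 31.6, at percentile 97.3 of all hotspots. It holds the GC-rich nearer stretch printed above with its 4 SP/KLF matches, and over its whole width it also held 1 E-box and 1 ETS match. No TSS of a protein-coding gene lay within it, since the nearest, of IRS1, was 3.604 kb from its midpoint. A second intron 1 hotspot, chr2:226756093-226756448, scored 13.5 at 43.5 kb downstream and held the FOXO and AP-1 matches shown. All but 1 of the 10 assigned hotspots of IRS1 lay within its 68.5 kb. The next gene upstream, RHBDD1, has its TSS 35.8 kb away, and its promoter hotspot scored 26.3.

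The 6 binding proteins held 57 of the 112 assigned hotspots, from 2 at IGFBP4 to 15 at IGFBP5, against a median of 5 per protein-coding gene. A promoter hotspot was present at 4 of the 6, against 77.2% of all protein-coding genes. These differences were not tested, and the binding proteins are too few to set them apart from all genes by that share.

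IGFBP3 (chr7:45912245-45921874, minus strand), the main IGF carrier in serum, had a hotspot of 789 bp over coding exon 1 that scored 13.9 and reached the canonical TSS, at percentile 33.0 of genes with a promoter hotspot. Another, scoring 8.996 in intron 1, lay near internal TSSs. Of its 14 assigned hotspots 12 lay upstream. The strongest, chr7:45978047-45978961, was 915 bp wide, scored 22.2 and lay 57.2 kb upstream, inside a long noncoding RNA gene (ENSG00000237471). A cluster of weaker ones surrounded it, and its AP-1 match is in the stretch printed above. On the other side of IGFBP3 its neighbour IGFBP1, a binding protein induced in liver when insulin is low, had a promoter hotspot of 5.61.

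IGFBP2 (chr2:216632828-216664436, plus strand) and IGFBP5 (chr2:216672105-216695549, minus strand) lie tail to tail, 5′ ends outward. IGFBP2 binds IGF2 more tightly than IGF1, and IGFBP5 is bound by extracellular matrix. IGFBP2 had no hotspot near its promoter: the nearest to its canonical TSS was 6.51 kb away, and the 2 hotspots inside its 31.6 kb, both in intron 1, scored 4.57 and 4.40. Its strongest assigned hotspot, chr2:216665417-216666110, was 694 bp wide and scored 11.1. It lay past the 3′ end of IGFBP2, in the interval between the genes. IGFBP5 had 1 promoter hotspot, 927 bp from its TSS and scoring 4.49, the weakest of the 7, and it was lost in a window of 500 bp. Its strongest hotspots lay in intron 1, at 11.5 kb (19.2) and 13.1 kb (13.3) downstream of the TSS. The first held the E-box shown and, outside its central 300 bp, an SP/KLF match. The second held an AP-1 match 9 bp from its midpoint. Its E-box and CTCF match, 161 and 237 bp from the midpoint, were both outside the central 300 bp. Another of 11.7, also with an AP-1 match, lay 18.3 kb upstream. A hotspot of 4.91 over the last exon of IGFBP5 was nearer to a TSS of IGFBP2 and was assigned there.

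IGFBP7 (chr4:57030773-57110385, minus strand), a secreted protein of low affinity for IGFs, had no promoter hotspot within 1000 bp. The nearest lay 1.94 kb from the TSS and scored 8.996, so a window of 2000 bp counted it. Among the 3 genes without a promoter hotspot it lay closest to a TSS, while the IGFBP5 hotspot lay just within the window. Upstream of IGFBP7 stood hotspots of 13.9 at 8.91 kb and of 15.01 at 53.6 kb (chr4:57163598-57164353), both inside the gene of the antisense RNA IGFBP7-AS1. Of the 6 hotspots within IGFBP7 the strongest scored 10.5, in intron 1, 35.5 kb downstream of the TSS. Another of 7.49 was nearer to a TSS of POLR2B.

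IGFBP4 and IGFBP6 had the fewest assigned hotspots, and both have neighbouring genes close by on either side. IGFBP6 (chr12:53097436-53102345, plus strand), which prefers IGF2 over IGF1, had 2 promoter hotspots over its first intron. They scored 11.0 and 12.7. The stronger one, from which no sequence is shown, had a GC content of 55.2% and held 2 AP-1 matches and 1 TEAD match. The gene is 4.91 kb long, and the 2 promoter hotspots were the only ones inside it. On them rests its density of 4.07 hotspots per 10 kb, at percentile 95.4 of all protein-coding genes. Of the IGFBP6 neighbours, SOAT2, 5.82 kb away, had no promoter hotspot, and SPRYD3, 18.3 kb away, had one of 36.4. IGFBP4 (chr17:40443450-40457725, plus strand), an inhibitor of IGF action that the protease PAPPA cuts, had 2 assigned hotspots. They scored 5.28 over coding exon 1 and 4.81 at 2.28 kb upstream. Its neighbours TOP2A, 25.6 kb away, and TNS4, 35.2 kb away, had promoter hotspots of 35.9 and 18.1.

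The base composition of the promoters was also read from the genome. Within 500 bp of the canonical TSS, 7 of the 10 genes had a GC content above 50% and an observed over expected CpG ratio above 0.6. Of these CpG-rich genes 5 had a promoter hotspot, against 91.2% of the 12976 such genes of the annotation. The pair without one was IGFBP2 (ratio 0.915) and IGFBP7 (ratio 0.872). IGF1 had a CpG-poor promoter (GC 38.0%, ratio 0.222), and 51.3% of all CpG-poor genes had a promoter hotspot. IGFBP5 (0.495) and IGFBP6 (0.530) were CpG-poor and had one. IRS2 had the highest ratio of the 10, 0.968.

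The numbers of motif matches in the members' hotspots were small, and their differences from all hotspots were not tested. Matches named above were sought over whole hotspots, and some lie outside the central 300 bp counted here. In windows of 300 bp about the midpoint, on either strand, AP-1 matched in 15 of 112 (13.4%), against 11.1% of all 181704 windows without an unknown base. FOXO, the transcription factors that insulin signaling holds out of the nucleus, matched in 8 (7.14%) against 3.999%. The E-box matched in 9 (8.04%) against 4.74%, and TEAD in 7 (6.25%) against 4.45%. SP/KLF matched in 3 (2.68%) against 4.69%, and ETS in 3 (2.68%) against 2.36%. The cAMP response element (TGACGTCA), the glucocorticoid receptor, p53 family and CTCF motifs matched in 0 of 112, against 0.343%, 0.509%, 0.0512% and 1.23% of all windows. At these shares few or no matches fall in 112 windows, so the zeros separate nothing. Across its 1879 bp the IRS2 promoter hotspot held 10 SP/KLF matches, some of which overlap.

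In RefSeq promoters (GRCh38.p14, 250 bases before to 50 after the start), 8 of the 10 genes were matched by symbol, all but IGF2 and IGFBP7. A single promoter per gene was searched. For IGF1 and IGFBP2 it lay at a start upstream of the canonical TSS. IRS2 had an SP/KLF match, as did 22.8% of all 35116 promoters. IGF1 and IGFBP6 each had a FOXO match (3.42% of promoters), IRS1 a TEAD match and an E-box (3.46% and 7.26%), and IGFBP5 a TEAD match. IGFBP2, IGFBP3 and IGFBP4 had no match to any of the 10 motifs in that window.

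A list of 45 further genes of the pathway gave the setting. Of these 38 (84.4%) had a promoter hotspot, again close to the 77.2% of all genes, and their median promoter score was 25.5. The 18 kinases and their regulators all had one, from AKT1 at 9.74 to GSK3B, which AKT inhibits, at 50.7. RHEB, the GTPase that activates mTOR, scored 48.4, and PTPN1, the phosphatase that acts on the insulin receptor, 42.6. Among receptors IGF1R scored 31.9, INSR 20.0 and IGF2R, which clears IGF2, 19.1. The 4 targets, FOXO1, FOXO3, FOXO4 and the glucose transporter gene SLC2A4, scored between 11.3 and 41.6. Among the 7 remaining adaptors only IRS4 had none.

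The genes of the list with no promoter hotspot were INS and INS-IGF2, the insulin receptor-related receptor INSRR, IRS4, the serum carrier subunit IGFALS, the protease PAPPA and the RNA-binding IGF2BP1. The most assigned hotspots were at RPTOR (61), IGF1R (47) and GRB10 (41). The fewest were at INS-IGF2 with 0, and INS, INSRR, SLC2A4 and IGFALS followed with 1 each. When members and list were split after the scores had been seen, 10 of 17 secreted ligands, binding proteins, proteases and stanniocalcins had a promoter hotspot (58.8%), and 35 of 38 receptors and intracellular proteins did (92.1%). The median score was 6.04 in the secreted group and 26.3 in the other. STC2, at 27.4, was the only one of the 17 above the all-gene median of 20.4, and 25 of the 38 were above it.

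**Figure D5:**
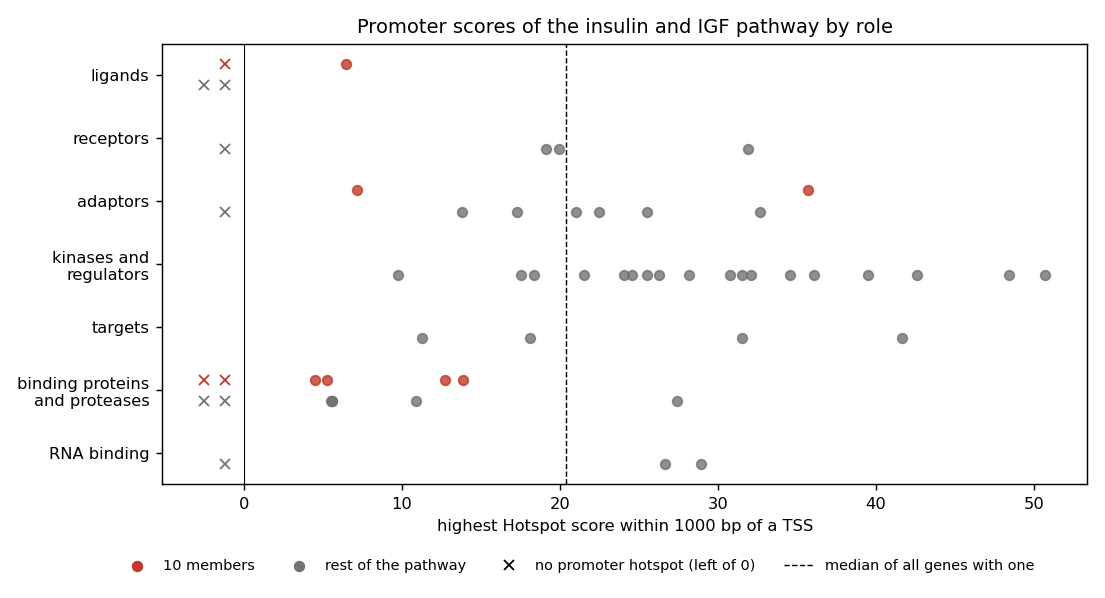
Highest promoter score by role for the 10 genes (red, upper row of each role) and the 45 further pathway genes (grey, lower row), with crosses left of 0 for genes without a promoter hotspot and the all-gene median of 20.4 as a dashed line. All 18 kinases and regulators have a score, and ligands and binding proteins lie at the low end except STC2 at 27.4.

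The cell type label was checked against 8 epithelial or basal mammary markers. Of these 6 had a promoter hotspot, with scores of 22.2 at EGFR to 33.2 at LAMA3, and KRT14 and TP63 had none. Of 8 markers of blood, endothelium, liver and neurons 4 had one, scoring 4.47 to 8.67. Over all protein-coding genes the share was 77.2%, so these counts do not settle the label. The scores of the 6 lay above the all-gene median of 20.4, and those of the 4 below it. No RNA was measured in these samples.

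Scores from different places were not on a wholly continuous scale. Of all hotspots 30.6% lay on steps of 0.376 starting at 4.48 (within 0.001), and of the 112 assigned hotspots 49 (43.8%) did. They were 12 of 15 at IRS2, 9 of 14 at IGFBP3 and at IGFBP7, 8 of 12 at IGF1 and 7 of 10 at IRS1. At IGFBP2, IGFBP4 and IGFBP6 there were 0, and at IGF2 and IGFBP5 2 each. The part of this in the order of the scores was not tested.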

How the data were processed

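ATAC-seq of MCF10A cells gave paired reads of 75 bases from 5 replicates. The authors aligned them to hg38 with Bowtie2 (version for these reads not given in the sources used here), pooled the alignments, removed duplicates and called hotspots with Hotspot at a false discovery rate of 0.01, with windows of 200 to 300 bp, a background of 50 kb and merging within 150 bp. No shift for Tn5 cut sites is stated. The value used is the score of the deposited list, and the position columns are other numbers of the deposited list, read as 0-based and printed 1-based. Every hotspot lay within its hg38 chromosome.

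TSSs were those of all transcripts of 20033 protein-coding genes (GENCODE 44). Rules for promoter, inside and assigned hotspots are given with the results, and ties counted for each gene. Motifs were searched as exact consensus matches on both strands. The glucocorticoid receptor, p53 family and CTCF motifs were searched as consensus patterns with ambiguous bases. The named genes were the 10 genes, their nearest neighbours, and of the pathway list the 3 highest promoter scores, every gene without a promoter hotspot and the most and fewest assigned. Others were named as examples after their values were seen. Members and lists were chosen with earlier results of these data known. 1 sequence is not reported here. The rules were tested on simulated data. Counts were recomputed with other windows, limits and TSS sets. Software was Python 3.11.15 with numpy 2.4.6, pandas 2.3.3, scipy 1.17.1 and matplotlib 3.10.9.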

Additional observations from a re-analysis of the deposited data

How the results depend on the processing

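The members with a promoter hotspot were 6 with a window of 500 bp, with midpoints only or with the canonical TSS, 8 with 2000 bp, 5 with scores above the median and 7 with protein-coding transcripts, against 7 as reported. Over all genes these settings gave 69.2% to 81.1%. The 112 assigned hotspots became 74 within 50 kb, 50 with scores above the median and 35 with TSSs of genes of every type, since fewer hotspots or more competing TSSs enter. The 36 hotspots inside the genes became 17 with scores above the median. The highest promoter score, 35.7 at IRS2, was the same in each setting. Of 79 values for single genes 24 moved by more than 1.5 times. No replicate could be left out, since the 5 were pooled before calling. No paired analysis was possible because the list holds 1 group and no replicate columns. The unknown depth limits statements on absence: a gene without a hotspot passed no call at this threshold.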
